A study of Mus musculus with 4 samples.

Results

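Capillary endothelial cells (capECs) of the mouse thymus were described here from single-cell RNA-seq of CD45- thymic cells. A cell was counted as a capEC when it had more than 1000 detected genes, under 20% mitochondrial UMIs (unique molecular identifiers, each counting 1 captured transcript), at least 2 UMIs of the endothelial genes Pecam1, Cdh5 and Kdr together, and no UMI of Epcam, Pdgfra or Ptprc. It also needed at least 3 UMIs of Gpihbp1, Cd36 and Car4 together, with this sum larger than that of the arterial genes Sema3g, Gja5, Gkn3 and Stmn2 and larger than that of the venous genes Selp, Ackr1 and Vwf. This rule found 995 capECs among 1366 endothelial cells (ECs), 10245 cells within the quality limits and 13981 called barcodes. The members were thus chosen by the measured UMIs of these 16 genes, the number of genes per cell and the mitochondrial share. These values are given as a description, and the 16 genes were not tested. Mitochondrial genes stayed in the genotype test, where 5 of 13 were called lower, and nothing is read from these calls.

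The study asked how thymic stroma differs when Foxn1, the transcription factor of thymic epithelial cells (TECs), is reduced. It compared 2 libraries of wild-type mice (mock, written WT) with 2 of Foxn1 LacZ mutants (written Z/Z), which per the study's methods are homozygous for this hypomorphic allele. All mice were untreated C57BL/6 animals, 6 months old, and the labels give their sex as female in the protocol and male in the characteristics. Each suspension came from the thymi of several mice and was depleted of CD45+ cells with beads before sorting, so a library is a pool of animals and p-values measure only the spread between these pools. The WT libraries gave 63 and 13 capECs and the Z/Z libraries 526 and 393, with 435285, 97765, 4041892 and 2720137 UMIs in all, so every WT value rests on few cells. Called barcodes were shared between WT 1 and WT 2 (202) and between Z/Z 1 and Z/Z 2 (249) and hardly across genotypes (at most 6). No barcode was a capEC in both libraries of a pair, and 0 and 1 capECs of the WT libraries and 3 and 2 of the Z/Z libraries had a barcode called in the partner library.

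Capillaries are the exchange vessels of a tissue. Their endothelium binds lipoprotein lipase through GPIHBP1, takes up the released fatty acids through CD36 and carries them with fatty acid binding proteins, and it also forms the barrier to plasma. In the thymus, ECs supply the epithelium and early thymocytes with factors such as KITL, CXCL12 and BMP4, while entry of progenitors from the blood takes place mainly at venous vessels that carry adhesion molecules such as VCAM1 and P-selectin.

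Promoters of genes described below are shown because these genes were higher in Z/Z capECs, and so that their sequence can be read beside their levels. The windows are the 250 bases before the RefSeq start on GRCm38.p6, written 5′ to 3′ on the gene's strand. Hilpda (second annotated start, chr6:29272376-29272625, plus strand) and Plin2 (chr4:86670060-86670309, minus strand) encode lipid droplet proteins. Their windows were searched on both strands for ACGTG, the core of the hypoxia response element. Mt1 (chr8:94178839-94179088, plus strand) encodes a metallothionein and was searched on both strands for TGCNCNC, the core of the metal response element. Matches are in capitals.
Hilpda: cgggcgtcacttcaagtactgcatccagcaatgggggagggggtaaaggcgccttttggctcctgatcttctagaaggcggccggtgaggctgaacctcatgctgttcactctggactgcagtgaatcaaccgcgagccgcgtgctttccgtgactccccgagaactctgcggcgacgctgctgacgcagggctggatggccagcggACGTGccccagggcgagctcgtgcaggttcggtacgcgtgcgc
Plin2: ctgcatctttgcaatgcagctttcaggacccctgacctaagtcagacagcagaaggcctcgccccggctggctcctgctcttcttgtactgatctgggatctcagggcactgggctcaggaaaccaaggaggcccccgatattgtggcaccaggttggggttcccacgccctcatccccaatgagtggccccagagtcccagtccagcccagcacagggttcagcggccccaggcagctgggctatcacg
Mt1: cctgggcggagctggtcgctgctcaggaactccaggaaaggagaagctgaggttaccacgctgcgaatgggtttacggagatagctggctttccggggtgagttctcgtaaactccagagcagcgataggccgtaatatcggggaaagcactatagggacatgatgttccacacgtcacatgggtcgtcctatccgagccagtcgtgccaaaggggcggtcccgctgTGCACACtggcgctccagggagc
The printed Hilpda window held 1 match, the window of its first annotated start (chr6:29272238-29272487, not printed) none, the Plin2 window none and the Mt1 window 1. Of 32851 promoter windows of this length, 16.6% held ACGTG and 44.4% held TGCNCNC, so a match is common and describes the letters only.

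The rule genes placed most capECs well inside the threshold. The median sum of Gpihbp1, Cd36 and Car4 per capEC was 23 and 22 UMIs in WT and 23 and 24 in Z/Z. At the threshold, 43 ECs had a sum of 3 and 43 had a sum of 2. Cd36, the fatty acid transporter, was detected in 983 of the 995 capECs, Gpihbp1 in 933, Car4 (a membrane-bound carbonic anhydrase) in 638, and all of them in 621 cells. An arterial rule gene was present in 260 capECs and a venous one in 113, so the class is not free of transcripts of the neighboring vessel segments. By library, an arterial rule gene was present in 25 of 63 and 6 of 13 WT capECs. In Z/Z it was present in 137 of 526 and 92 of 393 capECs, a smaller share than in either WT library. A venous rule gene was present in 7 and 2 WT capECs and in 60 and 44 Z/Z capECs. Levels are given as CPM, counts scaled to library size with TMM factors, and lists of values run from WT 1 and WT 2 to Z/Z 1 and Z/Z 2. Cd36 had 3068, 2580, 2518 and 2441 CPM. Gpihbp1 had 1013, 535, 1298 and 1929 CPM and Car4 had 144, 66.9, 338 and 429 CPM. Kdr, the main VEGF receptor, had 408, 220, 741 and 796 CPM. The arterial gene Sema3g had 179 and 201 CPM in WT and 66.9 and 59.2 CPM in Z/Z. Cd36 was thus at a similar level in the libraries, while Gpihbp1, Car4 and Kdr lay higher and Sema3g lower in Z/Z.

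Timp4, a metalloproteinase inhibitor that marks capECs, was not used by the rule. Its level was 209, 19.1, 325 and 420 CPM, and the low value of WT 2 comes from 2 UMIs. With each cell thinned to 2000 UMIs, Timp4 was detected in 20.0% and 15.4% of WT capECs and in 40.5% and 48.6% of Z/Z capECs (36.5%, 15.4%, 57.2% and 61.8% without thinning). Fibroblasts (FBs) were taken as cells with at least 2 Pdgfra UMIs and no UMI of Epcam, Ptprc, Pecam1, Cdh5 or Kdr. Leaving out cells with endothelial UMIs can lower the background that FBs give for endothelial genes. The thinned share of FBs with Timp4 was 0 in WT 1, WT 2 and Z/Z 1, which allows up to 0.870%, 2.86% and 0.381%. In Z/Z 2 it was 0.274%. Median depth was 4997 to 7454 UMIs per capEC and 11000 to 15100.5 UMIs per Pdgfra cell, and the capEC share lay above this background in WT 1, Z/Z 1 and Z/Z 2. In WT 2 it rests on 2 of 13 cells (95% Clopper-Pearson interval 1.92% to 45.4%), an interval that includes what the Pdgfra cells allow. Among ECs, Timp4 was higher in capECs than in venous ECs in 4 of 4 libraries and than in arterial ECs (0, 55.7, 38.4 and 66.3 CPM) in 3 of 4, the exception being WT 2 with 20.5 CPM in capECs (without TMM factors). Its difference between genotypes did not pass the threshold (log2 fold change 1.29, SE 0.40, edgeR adjusted p = 0.115).

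CapECs were the largest class of the thymic endothelium in every library. They made up 69.2% (95% Clopper-Pearson interval 58.7% to 78.5%) of ECs in WT 1, 65.0% (40.8% to 84.6%) in WT 2, 75.4% (72.0% to 78.5%) in Z/Z 1 and 70.6% (66.6% to 74.3%) in Z/Z 2. The intervals cover counting error only. The WT mean was 67.1% ± 2.99 (SD, n = 2) and the Z/Z mean 73.0% ± 3.40 (SD, n = 2), a difference of 5.84 percentage points in which the groups did not overlap (two-sided exact permutation p = 0.33, the smallest that 2 libraries against 2 can give). Without Z/Z 1 the difference was 3.44 points and without WT 2 it was 3.73 points. Among all cells within the quality limits, capECs were 4.15% and 2.74% of the WT libraries but 11.3% and 10.9% of the Z/Z libraries, with means of 3.45% ± 0.997 (SD, n = 2) and 11.1% ± 0.342 (SD, n = 2) and the same exact permutation p of 0.33. This second share also depends on digestion, depletion and the sort, which cannot be told apart from the genotype.

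**Figure D1:**
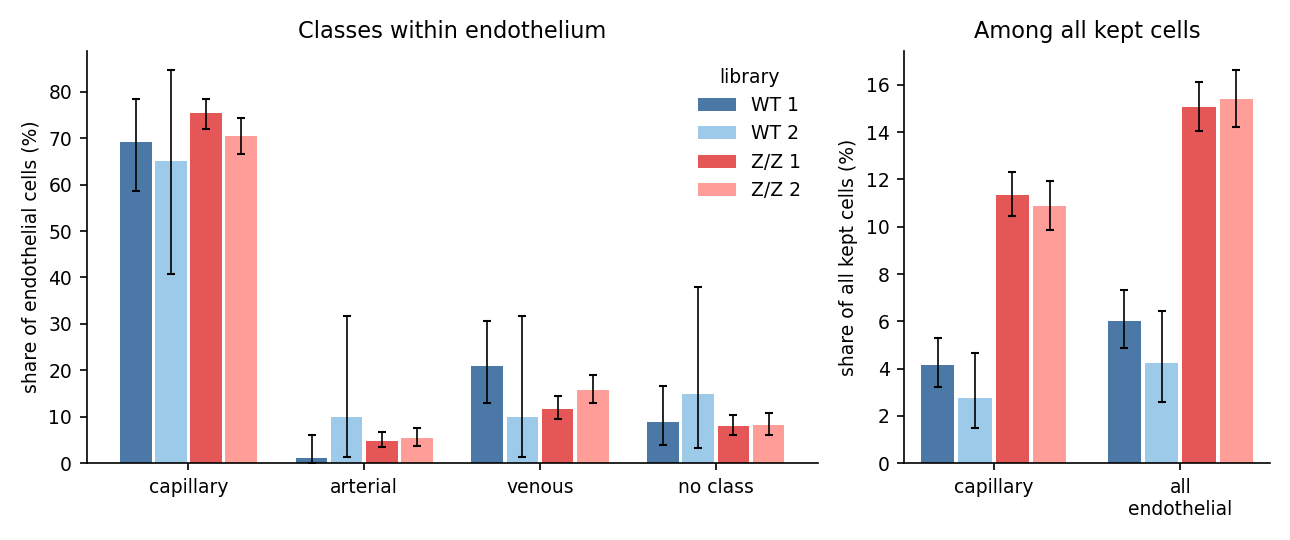
Shares of cells in percent for each library (WT 1, WT 2, Z/Z 1, Z/Z 2), with bars starting at 0 and lines for the 95% Clopper-Pearson interval; the left panel gives the capillary, arterial, venous and unassigned classes as a share of ECs, and the right panel gives shares of all cells within the quality limits. CapECs were 65.0% to 75.4% of ECs in the 4 libraries, and 2.74% to 4.15% of all kept cells in WT against 10.9% to 11.3% in Z/Z.

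Few capECs carried transcripts of dividing cells. At least 3 UMIs of cell cycle genes were found in 1 of 63 and 0 of 13 WT capECs, the latter allowing up to 23.1%, and in 3 of 526 and 1 of 393 Z/Z capECs. Of the 16 cell cycle genes listed, 6 were expressed highly enough to test and none was called (edgeR; 2 at an unadjusted p under 0.05, none by DESeq2). Pcna had 71.0, 115, 154 and 124 CPM in the 4 libraries (log2 fold change 0.76, edgeR adjusted p = 0.208).

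Set beside arterial and venous ECs of the same library, capECs had higher levels of Lpl, Btnl9, Slc28a2 and Aqp7, which the rule did not use. This is the contrast that chose the cells, so it is a description. Of 3406 genes outside the rule with at least 50 CPM in capECs, 294 were higher in capECs than in both other classes in 4 of 4 libraries. Lpl, the lipase that GPIHBP1 anchors at the capillary wall, led by the smaller of its mean log2 ratios, which were 4.88 over arterial and 5.11 over venous ECs (on the log2(CPM + 5) scale). Its level in capECs was 393, 614, 395 and 497 CPM, against 4.44, 0, 27.9 and 17.4 CPM in venous ECs and 66.2, 0, 17.7 and 3.16 CPM in arterial ECs. Next came Gm12002, the nucleoside transporter Slc28a2, the butyrophilin-like gene Btnl9, the glutamate transporter Slc1a1, the glycerol channel Aqp7, Vwa3a, Lnx1, Coro2b and Slc26a10. The arterial class held 1 and 2 cells in WT and the venous class 19 and 2, so the comparison rests mainly on the Z/Z libraries.

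Lpl was also detected in FBs. After thinning to 2000 UMIs it was found in 45.0% and 38.5% of WT capECs and 47.1% and 52.7% of Z/Z capECs (61.9%, 53.8%, 69.0% and 69.7% without thinning). In Pdgfra cells the thinned share was 47.5% to 64.7%, while in venous ECs it was 0 of 19, 0 of 2, 3.66% and 2.30%. Within the endothelium, Lpl was thus detected far more often in capECs than in venous ECs of the same library, which were the deeper cells.

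Endothelial genes of known function were set beside these. Fabp4, the fatty acid binding protein, had 12243 and 8797 CPM in WT capECs and 16448 and 18135 CPM in Z/Z capECs (here without TMM factors), with mean log2 ratios of 2.13 over arterial and 1.74 over venous ECs. The tight junction gene Cldn5 was shared with arterial ECs (mean log2 ratio -0.22) and higher than in venous ECs (4.96). Cxcl12, the chemokine for thymocyte progenitors, was higher in capECs than in arterial (1.81) and venous ECs (3.36). Plvap, the diaphragm protein of fenestrated and venous endothelium, was lower in capECs than in venous ECs (-2.54) and higher than in arterial ECs (3.80). Vcam1 was lower than in both (-2.63 against arterial and -2.67 against venous ECs). Sele, an inducible adhesion molecule, was at 0 to 8.41 CPM in capECs against 291 to 1653 CPM in venous ECs.

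**Figure D2:**
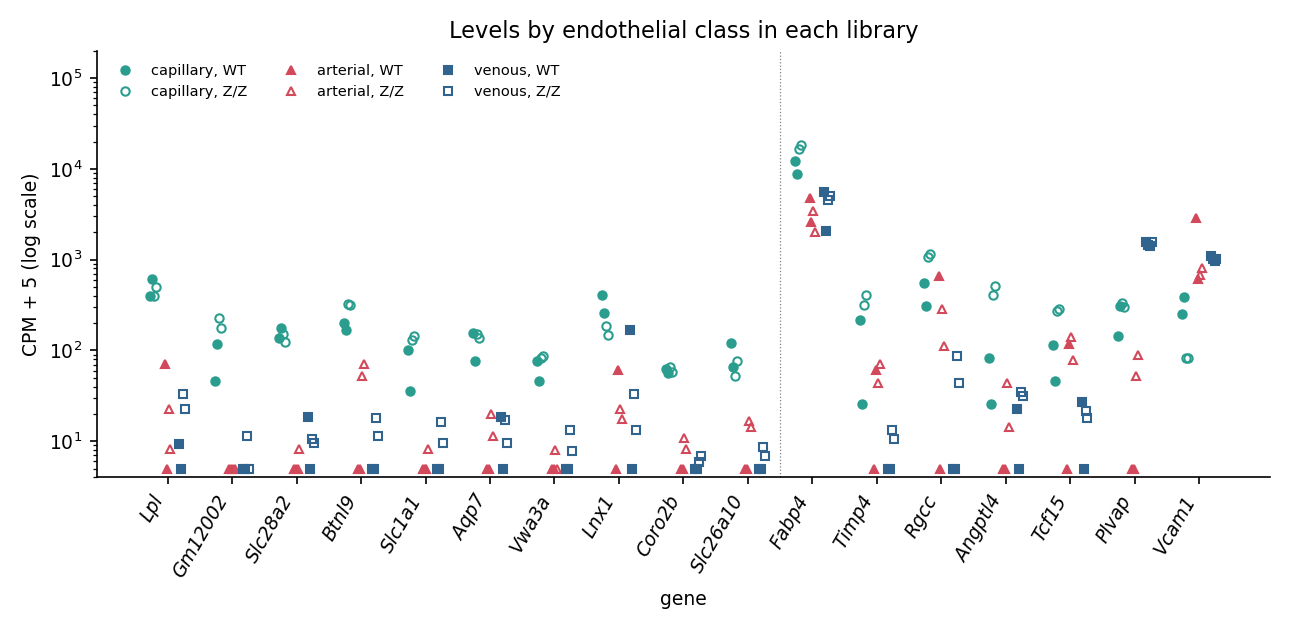
Levels of 17 genes (CPM + 5, log scale) in capillary, arterial and venous ECs, 1 point per library and class, filled for WT and open for Z/Z; the 10 genes left of the dotted line lead the ranking of capECs over both other classes. Lpl was at 393 to 614 CPM in capECs and at most 66.2 CPM elsewhere, while Plvap and Vcam1 were lower in capECs than in venous ECs in 4 of 4 libraries.

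The genotypes were then compared within capECs, using UMIs summed per library and edgeR's quasi-likelihood F test at a Benjamini-Hochberg adjusted p of 0.05. Of 9740 genes tested, 105 were higher (1.08%) and 104 were lower (1.07%) in Z/Z, 209 in all (2.15%). The median log2 fold change of all genes tested was 0.06, and 1765 genes had an unadjusted p under 0.05 by this test. Counts at an unadjusted p under 0.05 within gene lists are to be read against that number. Genes higher in Z/Z included Angptl4, an inhibitor of lipoprotein lipase, the lipid droplet gene Plin2, the metallothionein gene Mt1 and the cell cycle inhibitor Cdkn1c. Genes lower in Z/Z included the adhesion molecule Vcam1, the transcriptional cofactor Ldb2, the transcription factor Mecom, and Thsd7a. For all 209 genes the 4 libraries did not overlap between genotypes, which was true of 52.4% of all genes tested and is therefore common with 2 libraries against 2.

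These calls depend on both WT libraries. Without WT 1 no gene was called (edgeR; 1560 genes at an unadjusted p under 0.05), and all 209 kept their direction. Without WT 2, the library of 13 capECs, 12 of the 105 and 15 of the 104 were still called. Without Z/Z 1 it was 55 and 48, and without Z/Z 2 it was 63 and 35. DESeq2 called 47 of the 105 and 70 of the 104. Of the genes called higher, 11 had no WT UMI and 22 had 1 to 3. For these, a ratio against a floor of 3 WT counts or a pooled ratio with its counting interval replaces the fitted fold change. Both count UMIs as independent, also where several come from 1 cell.

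**Figure D3:**
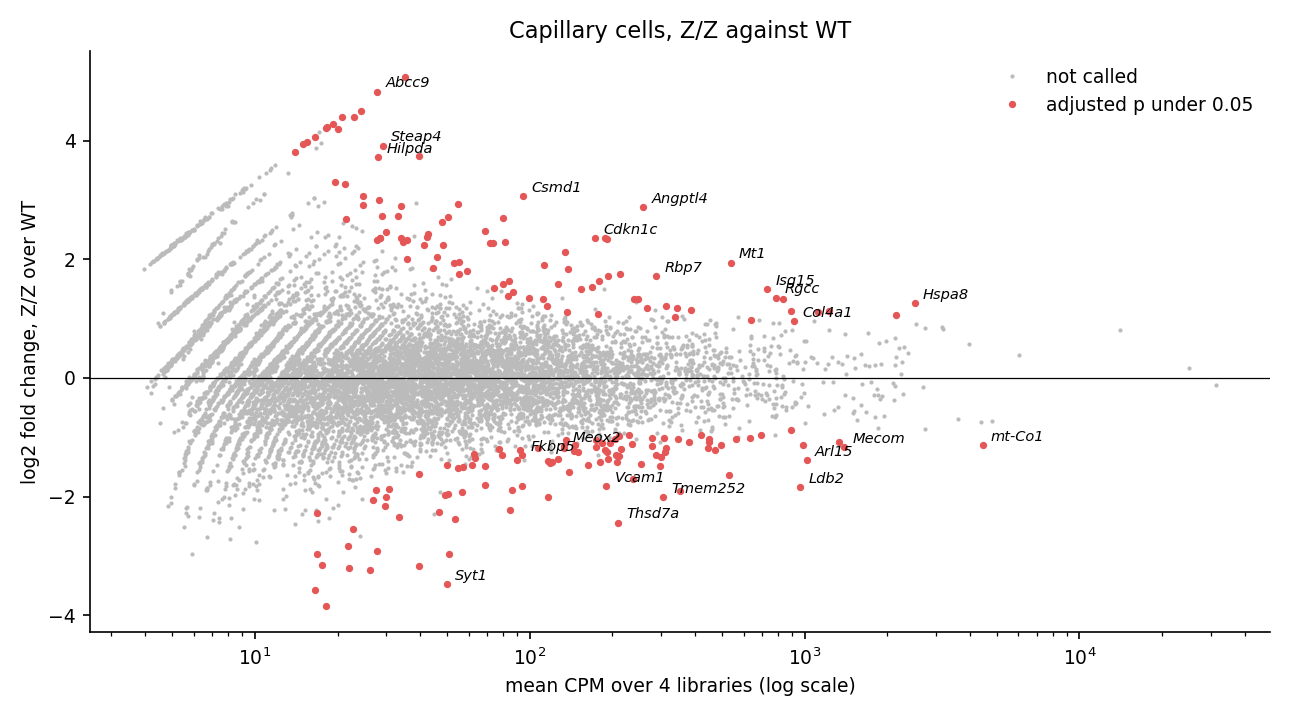
Log2 fold change of Z/Z over WT in capECs against the mean CPM over 4 libraries (log scale), 1 point per gene tested with at least 1 WT UMI, red where the edgeR adjusted p was under 0.05. Called genes lie on both sides of 0, with Ldb2, Mecom and Hspa8 among the abundant ones; the 11 genes called higher without a WT UMI have no finite fold change and are not drawn.

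Markers of other stromal cells were measured in the same sums, and 3 of 6 pericyte markers were called higher in Z/Z. Pericyte, smooth muscle and FB markers together had 209 and 1043 CPM in WT capECs against 751 and 858 CPM in those of Z/Z mice (without TMM factors), with overlapping groups. At least 5 such UMIs were present in 1 of 63 and 1 of 13 WT capECs and in 57 of 526 (10.8%) and 53 of 393 (13.5%) Z/Z capECs. The summed pericyte markers had 112, 124, 481 and 522 CPM and all 6 lay higher in both Z/Z libraries, with 3 called. Of all genes tested, 52.4% did not overlap between the groups in either direction and 1.08% were called higher. Smooth muscle markers had 25.2, 822, 217 and 263 CPM and 1 cell held nearly all of them in WT 2 (96 of 102 marker UMIs). FB markers other than Pdgfra summed to 71.0, 28.7, 77.7 and 107 CPM. Epithelial markers summed to 9.55 to 31.0 CPM, thymocyte and haematopoietic markers to 3.83 to 39.0 CPM, lymphatic markers to 28.7 to 89.2 CPM and adipocyte markers to 0 to 4.09 CPM, while Epcam, Pdgfra and Ptprc are at 0 by the rule.

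Leaving out the capECs with 5 or more of these marker UMIs, a choice made after seeing the data, brought this marker level to 90.1, 66.3, 102 and 101 CPM. In that fit 57 of the 105 genes were still called higher and 25 were no longer expressed highly enough to test, and 87 of the 104 were still called lower. The genes no longer called included several of pericytes, other mural cells and FBs, named partly after their values were seen. Rgs5, the classical pericyte marker, had 94.0, 105, 312 and 343 CPM in all capECs (log2 fold change 1.76, SE 0.26, edgeR adjusted p = 0.00598) and a log2 fold change of 2.68 with an adjusted p of 0.128 without these cells. Rgs4, Abcc9, Postn, Steap4, Ano1, Ccl11 and Notch3 were too low to be tested and have no value there. Zeb2, Prkg1 and Csmd1 went from log2 fold changes of 2.27, 2.33 and 3.06 to -0.06, 0.11 and -0.06. Rgs5, Abcc9 and Notch3 are themselves among the markers that decided which cells were left out, so nothing is read from the loss of their calls. The highest Scrublet doublet scores (3.9% of cells per library) also fell on Z/Z capECs, 25 and 14 of them, and on 0 WT capECs, and without these cells 73 of the 105 and 95 of the 104 genes were still called.

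**Figure D4:**
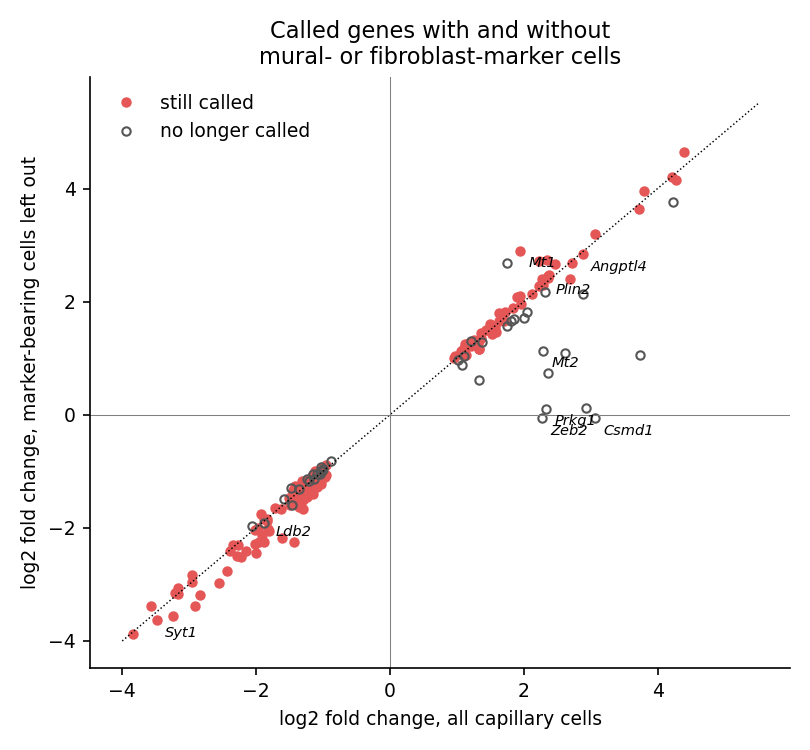
Log2 fold change of Z/Z over WT in all capECs (x axis) and after capECs with 5 or more pericyte, smooth muscle or FB marker UMIs were left out (y axis), for the 178 called genes with a WT UMI that were tested in both; the dotted line marks equal values. Filled points (138 genes) were still called and open points (40 genes) were not. Zeb2, Prkg1 and Csmd1 were near 0 on the y axis, while Angptl4, Plin2, Mt1 and Ldb2 stayed near the line or rose above it.

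Angptl4 and Tcf15 were higher and Meox2 was lower among genes of fatty acid uptake. Of 17 genes listed for fatty acid uptake, 15 were tested, 2 were called higher and 1 lower, and their median log2 fold change was 0.66 against 0.06 for all genes tested. Angptl4 (ENSMUSG00000002289, chromosome 17, 33773750 to 33781830, minus strand, GRCm38), whose secreted product inhibits lipoprotein lipase, had 77.9 CPM in WT 1 and 19.1 CPM in WT 2 against 412 and 526 CPM in Z/Z. Both Z/Z libraries lay several-fold above the higher WT library. Its log2 fold change was 2.88 (SE 0.34, edgeR adjusted p = 0.00313) and it was called in 17 of 18 alternatives, all but the one without WT 1. Its size was less certain, from 1.88 with thinned cells to 4.69 without WT 1, and WT 2 held 2 UMIs. Its free-RNA level, read from barcodes with at most 100 UMIs, was 6.18, 6.14, 67.0 and 86.4 CPM and rose with it, and subtracting free RNA did not end the call. After thinning, Angptl4 was detected in 11.7% and 7.69% of WT capECs and 33.3% and 35.7% of Z/Z capECs (15.9%, 15.4%, 49.6% and 49.6% without thinning), against 4.76% to 8.49% of Pdgfra cells.

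Plin2 and Hilpda, which encode lipid droplet proteins, were chosen after their values were seen. Plin2, which coats lipid droplets, had 77.9 and 19.1 CPM in WT and 332 and 320 CPM in Z/Z (log2 fold change 2.36, SE 0.33, edgeR adjusted p = 0.005), and it was called in 17 of 18 alternatives, with log2 fold changes from 1.64 to 4.17 and 2 UMIs in WT 2. Hilpda, an inhibitor of the intracellular lipase ATGL, had 1 UMI in each WT library against 182 and 141 in Z/Z, a pooled ratio of 13.4 (95% exact counting interval 3.67 to 111). The Plin2 window and the window of the first Hilpda start lack ACGTG, as does that of Esm1, and the window of the second Hilpda start holds it.

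The transcription factors TCF15 and MEOX2, which together drive fatty acid uptake in capillary endothelium of heart and muscle, moved in opposite directions. Tcf15 had 110, 38.2, 274 and 293 CPM and was higher in both Z/Z libraries (log2 fold change 1.64, SE 0.30, edgeR adjusted p = 0.0169). Meox2 had 179, 191, 98.1 and 65.3 CPM and was lower in both (log2 fold change -1.15, SE 0.27, edgeR adjusted p = 0.0483), a call that held in 3 of 18 alternatives. Rbp7, a retinol binding protein of capillary endothelium chosen after its values were seen, had 140, 124, 422 and 470 CPM (log2 fold change 1.72, SE 0.24, edgeR adjusted p = 0.00532). The genes that carry out uptake itself did not pass the threshold. Fabp4 had 12212, 8216, 16983 and 18851 CPM (log2 fold change 0.81, SE 0.24, edgeR adjusted p = 0.108) and Fabp5 had 408, 373, 523 and 569 CPM (0.47, adjusted p = 0.271). Lpl had 392, 573, 407 and 516 CPM, with overlapping groups and a log2 fold change of 0.00 (SE 0.24, edgeR adjusted p = 0.998).

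A metal and glucocorticoid response list of 12 genes, all tested, had 2 called higher and 1 lower, with a median log2 fold change of 0.34. Mt1, which binds zinc and copper, had 245 and 182 CPM in WT and 846 and 881 CPM in Z/Z (log2 fold change 1.94, SE 0.24, edgeR adjusted p = 0.00313). Its free-RNA level was 712, 566, 4757 and 5723 CPM, far above its level in capECs and higher in Z/Z, and with free RNA subtracted its log2 fold change was 1.04 and did not pass the threshold. Without the marker-bearing cells its log2 fold change was 2.90 (edgeR adjusted p = 0.00138). Mt2, its paralog, had 34.4, 9.55, 179 and 103 CPM (log2 fold change 2.29, SE 0.45, edgeR adjusted p = 0.0212), with a log2 fold change of 1.13 and an adjusted p of 0.285 without the marker-bearing cells. Fkbp5, a glucocorticoid receptor cochaperone and target, was lower, with 142 and 124 CPM in WT and 63.4 and 46.6 CPM in Z/Z (log2 fold change -1.30, SE 0.28, edgeR adjusted p = 0.0302). Its free-RNA level was 213, 234, 110 and 122 CPM, above its level in capECs in every library and higher in WT. Fkbp5 was called in 10 of 18 alternatives, among them free RNA subtracted but not DESeq2 or thinned cells. Cdkn1a, the p53 target p21, had 658, 420, 844 and 1309 CPM and did not pass the threshold (log2 fold change 0.93, adjusted p = 0.0985).

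The heat shock genes Hsp90aa1 and Hspa8 were higher in Z/Z. Of 16 immediate early and heat shock genes tested, 1 was called higher and none lower, with a median log2 fold change of 0.21. Hsp90aa1, the inducible cytosolic HSP90, had 667, 764, 1783 and 1278 CPM (log2 fold change 1.11, SE 0.24, edgeR adjusted p = 0.0278). Hspa8, the constitutive HSC70, was chosen after its values were seen and had 1687, 1252, 3846 and 3277 CPM (log2 fold change 1.26, SE 0.23, edgeR adjusted p = 0.0148). The stress-induced Hspa1a and Hspa1b, near-identical copies whose reads can be split uncertainly, had log2 fold changes of 0.38 and -0.02 (adjusted p = 0.609 and 0.992). Free-RNA levels were also higher in Z/Z, at 444, 414, 1207 and 872 CPM for Hsp90aa1 and 744, 638, 2006 and 1718 CPM for Hspa8. Fos, an immediate early transcription factor, had 1856, 2627, 2016 and 2025 CPM (log2 fold change -0.13, adjusted p = 0.807).

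Cdkn1c and Rgcc were chosen after their values were seen. Cdkn1c, which encodes the inhibitor p57, had 59.6 and 47.8 CPM in WT and 267 and 317 CPM in Z/Z (log2 fold change 2.36, SE 0.29, edgeR adjusted p = 0.00313), with WT libraries close together and far below both Z/Z libraries. It was called in 17 of 18 alternatives, with log2 fold changes from 2.18 to 3.71. It was detected after thinning in 10.0% and 7.69% of WT capECs and 34.9% and 37.2% of Z/Z capECs (20.6%, 23.1%, 60.3% and 59.5% without thinning). Pdgfra cells also express it, at 8.57% to 18.1% after thinning, and so the comparison with venous ECs is the closer one: 0 of 19, 0 of 2, 2.44% and 5.75%. Rgcc, a regulator of the cell cycle, had 552, 287, 1106 and 1201 CPM (log2 fold change 1.36, SE 0.26, edgeR adjusted p = 0.0202).

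In the VEGF and angiopoietin list 15 of 16 genes were tested, 1 was called higher and none lower, with a median log2 fold change of 0.35. Esm1, a marker of tip cells and a target of VEGF signaling, had no WT UMI against 216 and 83 UMIs in Z/Z. This is 8.26-fold higher against a floor of 3 counts over the WT group. The floor counts UMIs as independent, while the Z/Z UMIs lay in few capECs, so 8.26-fold is not a lower limit over cells. After thinning, Esm1 was seen in 0 of 60 and 0 of 13 WT capECs, which allows up to 5.00% and 23.1%. In Z/Z it was seen in 3.68% and 3.10% of capECs (7.79% and 5.09% without thinning), with none in Pdgfra cells of any library. The Z/Z shares lie under what the WT counts allow, so the difference between libraries in the share of positive cells was not detectable at this depth. Flt1, the decoy VEGF receptor, had 2136, 1624, 2388 and 2449 CPM (log2 fold change 0.35, adjusted p = 0.427) and Nrp1, the VEGF coreceptor, had 681, 755, 785 and 758 CPM (0.12, adjusted p = 0.816).

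Col13a1, Gm12840, Piezo2 and Ccl11 also had no WT UMI. Col13a1, a transmembrane collagen, had 265 and 160 UMIs in Z/Z, 11.7-fold higher against the floor of 3 WT counts. Piezo2, a mechanically gated channel, had 180 and 166 UMIs (9.55-fold), and Gm12840 was 10.4-fold higher. DESeq2 and the fit with thinned cells called none of these. Free-RNA levels of Gm12840 were 30.9, 9.49, 247 and 262 CPM, against 62.3 and 50.1 CPM in Z/Z capECs. Ccl11 (10.7-fold) was not testable without the marker-bearing cells. These ratios count UMIs as independent and are not lower limits over cells. Tnfrsf21, a death receptor, had 1 WT UMI against 160 and 122 in Z/Z, a pooled ratio of 23.4 (95% exact counting interval 4.16 to 926). Prg4, a lubricating proteoglycan, had 1 WT UMI against 149 and 115, a ratio of 21.9 (3.89 to 867). Slc2a3, a glucose transporter, had 1 against 133 and 106, a ratio of 19.8 (3.52 to 785), and was chosen after its values were seen. With 1 WT UMI the size of these ratios is known at best to within their wide intervals.

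Flow response and vascular tone genes numbered 15, of which 13 were tested, 2 were called higher and none lower, with a median log2 fold change of 0.25. Adm, the vasodilator adrenomedullin, had 3 and 0 UMIs in WT against 208 and 102 in Z/Z, a pooled ratio of 8.56 (95% exact counting interval 2.9 to 41.7). Hmox1, the haem oxygenase, had 32.1, 86.0, 200 and 131 CPM (log2 fold change 1.90, SE 0.41, edgeR adjusted p = 0.0308). The flow-induced transcription factors Klf2 and Klf4 had log2 fold changes of -0.12 and 0.07 (adjusted p = 0.837 and 0.909), with overlapping groups for both.

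Vcam1 was lower in Z/Z capECs. Of 13 leukocyte adhesion genes, 11 were tested, none was called higher and 1 lower, with a median log2 fold change of 0.07. Vcam1 (ENSMUSG00000027962, chromosome 3, 116109949 to 116129688, minus strand, GRCm38), which holds leukocytes through the integrin VLA-4, had 247 and 353 CPM in WT capECs and 79.7 and 80.6 CPM in Z/Z capECs. Both Z/Z libraries lay below both WT libraries (log2 fold change -1.82, SE 0.24, edgeR adjusted p = 0.00418), and the call held in 17 of 18 alternatives. After thinning it was detected in 21.7% and 53.8% of WT and 7.75% and 5.94% of Z/Z capECs (34.9%, 53.8%, 14.3% and 13.2% without thinning). Venous ECs, where it is a known marker, had it in 63.2% and 2 of 2 cells in WT and in 67.1% and 67.8% of cells in Z/Z, at median depths of 8970.5 to 15451.5 UMIs before thinning. Pdgfra cells had it in 20.5% to 27.6%. In arterial ECs (1, 2, 34 and 30 cells) its level was 2848, 613, 673 and 798 CPM (without TMM factors). Arterial rule genes were found in a larger share of WT than of Z/Z capECs, and whether this bears on Vcam1 was not tested. Icam1 had 573, 736, 464 and 527 CPM (log2 fold change -0.37, adjusted p = 0.408).

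Ldb2 and Mecom, which encode transcriptional regulators, were lower in Z/Z. Ldb2 (ENSMUSG00000039706, chromosome 5, 44472132 to 44799680, minus strand, GRCm38), a LIM-domain binding cofactor chosen after its values were seen, had 1554 and 1452 CPM in WT and 421 and 424 CPM in Z/Z. Within each genotype its levels were nearly equal, and the log2 fold change was -1.84 (SE 0.20, edgeR adjusted p = 0.00313). It was called in 17 of 18 alternatives. Mecom, which encodes the factor EVI1, had 1902 and 1959 CPM in WT and 964 and 751 CPM in Z/Z (log2 fold change -1.17, SE 0.21, edgeR adjusted p = 0.0158). It was the member called of 18 endothelial transcription factors tested, whose median log2 fold change was -0.03. Of the others, Fli1 had 995, 1127, 763 and 731 CPM (log2 fold change -0.49, adjusted p = 0.226), Foxp1 had 752, 678, 529 and 518 CPM (-0.46, adjusted p = 0.254) and Tcf4 differed by -0.08 (adjusted p = 0.888).

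Among the 12 largest decreases, Syt1, a synaptotagmin of vesicle fusion, had 105 and 76.4 CPM in WT and 5.36 and 12.6 CPM in Z/Z (log2 fold change -3.48, SE 0.45, edgeR adjusted p = 0.00418). Its free-RNA level was 337, 153, 57.8 and 81.4 CPM, above its level in capECs in every library and higher in WT. Syt1 was detected in 8 of 63 capECs of WT 1 before thinning. It was called in 16 of 18 alternatives, including the one with free RNA subtracted. Thsd7a, a thrombospondin-domain protein of endothelial migration, had 222, 497, 63.6 and 53.1 CPM (log2 fold change -2.44, SE 0.32, edgeR adjusted p = 0.00418). F8, coagulation factor VIII, had 75.6, 105, 13 and 19.5 CPM (log2 fold change -2.39, SE 0.38, edgeR adjusted p = 0.00816) and Prom1, the membrane protein prominin 1, had 77.9, 76.4, 13.8 and 18.7 CPM (log2 fold change -2.27). The remaining ones were Myrip, Uchl1, D5Ertd615e, Gm46565, Mill2, Ms4a6b, Ccn3 and Gm15738, with log2 fold changes from -3.24 to -2.35 and 2 to 9 UMIs each in WT 2. Beyond these, and chosen after their values were seen, Tmem252 had 504, 478, 103 and 142 CPM (log2 fold change -2.02, SE 0.23, edgeR adjusted p = 0.00313), the fibrillin gene Fbn1 had 117, 267, 41.6 and 39.4 CPM (-2.0, adjusted p = 0.011) and Arl15, a small GTPase, had 1538, 1404, 639 and 496 CPM (-1.38, adjusted p = 0.00816).

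**Figure D5:**
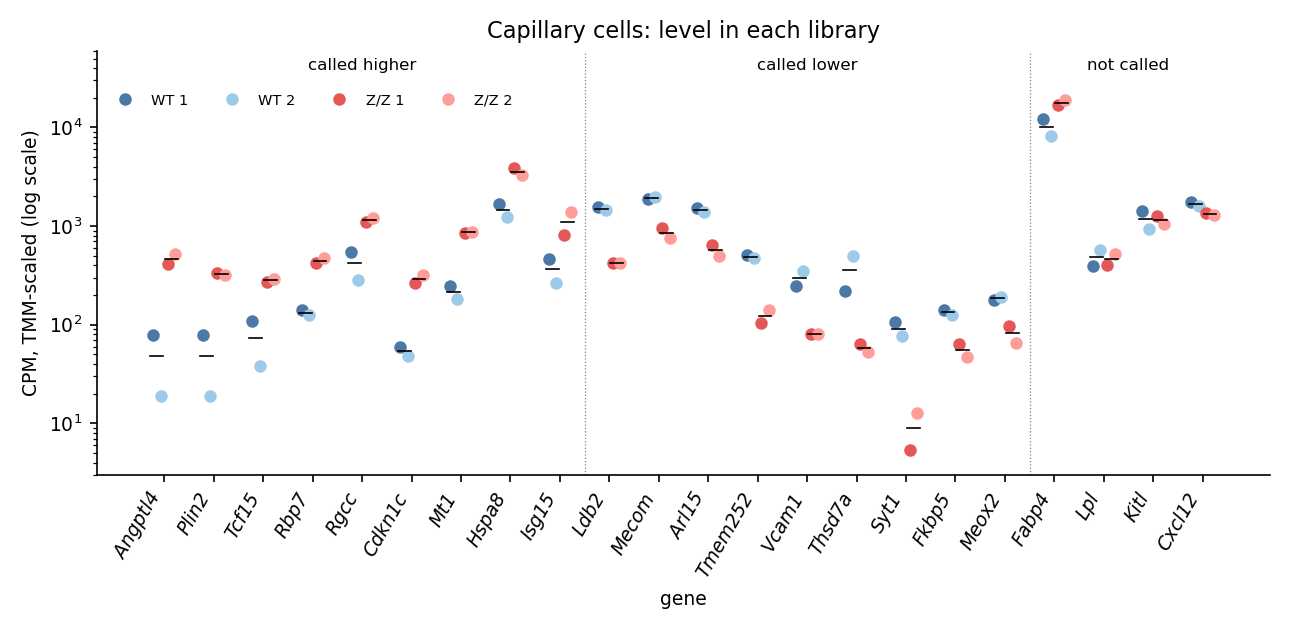
CPM of 22 genes in the capECs of each library (TMM-scaled, log scale), 1 point per library with a short line at each group mean, grouped as called higher, called lower and not called in Z/Z. For Angptl4, Plin2, Cdkn1c and Mt1 both Z/Z points lie above both WT points, for Ldb2, Mecom and Vcam1 both lie below, and for Lpl and Kitl the groups overlap.

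Of 20 interferon-stimulated genes, all tested, 1 was called higher and none lower. The median log2 fold change was 0.53 against 0.06 for all genes tested, 17 were positive and 8 had an unadjusted p under 0.05 (edgeR). Over all 9740 genes tested, 1765 had an unadjusted p under 0.05, so such values were common. Isg15, the ubiquitin-like interferon target, had 461 and 268 CPM in WT and 809 and 1382 CPM in Z/Z (log2 fold change 1.49, SE 0.30, edgeR adjusted p = 0.0221). Its free-RNA level was 59.0, 34.0, 331 and 446 CPM. Iigp1, an immunity-related GTPase, had 1794, 1739, 2917 and 3700 CPM and lay just outside the threshold (log2 fold change 0.90, SE 0.22, edgeR adjusted p = 0.0502). Ifitm3 had 2049, 1701, 2095 and 3342 CPM (0.53, adjusted p = 0.287) and Ly6c1 had 2037, 2293, 1826 and 2252 CPM (-0.08, adjusted p = 0.887). In most of these genes Z/Z 2 was the highest library.

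MHC and antigen presentation genes did not pass the threshold, with 14 of 15 tested, a median log2 fold change of -0.38 and none called (edgeR; 3 at an unadjusted p under 0.05, none by DESeq2). B2m had 2159, 2045, 1717 and 1702 CPM (log2 fold change -0.30, adjusted p = 0.469). H2-K1 had 1762, 1959, 1211 and 1483 CPM (-0.46, adjusted p = 0.273).

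Factors by which ECs support the thymus were not called in either direction. Of 14 genes listed, 9 were tested, with a median log2 fold change of 0.15 and none called (edgeR; 1 at an unadjusted p under 0.05, none by DESeq2). Kitl, the stem cell factor that early thymocytes need, had 1409, 946, 1255 and 1042 CPM with overlapping groups (log2 fold change -0.07, SE 0.23, edgeR adjusted p = 0.913). Cxcl12 had 1746, 1595, 1345 and 1298 CPM (-0.34, SE 0.20, adjusted p = 0.403). The Notch ligand Dll4 had 64.2, 57.3, 96.1 and 75.7 CPM (0.46, SE 0.31, adjusted p = 0.468), and Bmp4 had 9.17, 9.55, 13 and 20.3 CPM. Of the 10 Notch pathway genes tested none was called, with a median log2 fold change of -0.10 (edgeR; 0 at an unadjusted p under 0.05, none by DESeq2). Hes1, a Notch target, had 378, 153, 257 and 167 CPM (-0.50, adjusted p = 0.437).

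Most barrier and matrix genes did not pass the threshold. Of the 15 barrier and transport genes tested none was called by edgeR (median log2 fold change 0.22; 4 at an unadjusted p under 0.05, and 1 by DESeq2). The water channel Aqp1 had 1027, 831, 817 and 1288 CPM (0.16, adjusted p = 0.791) and Cav1, the main caveolar protein, had 763, 764, 883 and 742 CPM (0.09, adjusted p = 0.87). Of 16 basement membrane genes 1 was called higher and none lower, with a median log2 fold change of 0.29. Col4a1, a chain of type IV collagen, had 701 and 516 CPM in WT and 1220 and 1221 CPM in Z/Z (log2 fold change 0.96, SE 0.22, edgeR adjusted p = 0.0414), and was called in 10 of 18 alternatives. Sparc, a matricellular protein, had 866, 583, 1410 and 1485 CPM (0.95, adjusted p = 0.0502). In the BMP and TGF-β list 14 of 15 genes were tested and 1 was called higher, with a median log2 fold change of 0.02: Tgfb1, the ligand TGF-β1, had 170, 76.4, 340 and 376 CPM (log2 fold change 1.33, SE 0.28, edgeR adjusted p = 0.0265). Id1, a BMP target, had 999, 602, 1061 and 961 CPM (0.28, adjusted p = 0.578).

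Mitochondrial transcripts are part of the rule through the limit of 20%, so they are given as a description. They made up 2.94%, 4.04%, 1.82% and 1.94% of the UMI sums of the 4 libraries. mt-Co1, a subunit of cytochrome c oxidase, had 5172 and 7060 CPM in WT and 2910 and 2639 CPM in Z/Z, with free-RNA levels of 20813, 21620, 5555 and 10217 CPM. The mitochondrial genome accounts for 5 of the 104 genes counted as lower, and nothing is read from these.

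The genotype effect in capECs was finally set against that in all other ECs of the same libraries, with an interaction term and the library as a block. Of 9920 genes tested, 56 differed (0.565%), 27 with a more positive and 29 with a more negative effect in capECs, and 18 of them were also called in capECs alone. The smallest adjusted p were those of Nts, Rgs6 and Crispld2, all more positive in capECs. In the other ECs these had 187, 220 and 202 CPM in WT 1, 0 in WT 2 and 6.28 to 34.8 CPM in Z/Z (without TMM factors). Their differences thus rest on the other ECs of 1 WT library. Mgp came next, more negative in capECs, with 57.7, 15.1, 861 and 1560 CPM in the other ECs. Thsd7a, Syt1, Tmem252, Ccn3, Myrip and D5Ertd615e, all lower in Z/Z capECs, had a more negative effect there than in the other ECs. Thsd7a had 223, 532, 61.6 and 51.1 CPM in capECs and 483, 302, 352 and 432 CPM in the other ECs (without TMM factors), a difference of -2.52 on the log2 scale (SE 0.49, edgeR adjusted p = 0.000697). For Vcam1 the difference was -1.88 (SE 0.51, edgeR adjusted p = 0.055) and for Hilpda it was 4.12 (SE 1.13, adjusted p = 0.055). For Angptl4, Plin2, Ldb2 and Cdkn1c the differences were 1.78, 1.80, -0.84 and -0.07 (SE 1.0, 0.93, 0.48 and 0.94, edgeR adjusted p = 0.764, 0.695, 0.772 and 1), so their genotype effect was not shown to be particular to capECs. The other ECs of WT 2 were 7 cells, the count of genes called ran from 1 to 305 when a library was left out, and it was 0 after free RNA was subtracted (edgeR; 616 at an unadjusted p under 0.05).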

How the data were processed

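CD45- thymic cells of 4 libraries (2 WT, 2 Z/Z) were profiled by droplet 3′ RNA-seq. The authors mapped reads with Cell Ranger (7.0.1 per the file headers, 7.01 per the labels) to mm10 and deposited unnormalized UMI counts for each barcode; the kit is v2 in the labels and a v3 chip elsewhere in the methods. Positions follow GENCODE vM21 (GRCm38).

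The members and gene lists were chosen with earlier results of these data known. CapEC UMIs were summed per library and tested with edgeR 4.0.16 (R 4.3.3, limma 3.58.1): TMM, filterByExpr, quasi-likelihood F test, two-sided, Benjamini-Hochberg adjusted p under 0.05, without covariates. The 16 genes of the rule and 99 ribosomal protein and haemoglobin genes were not tested. Doublets were not removed; Scrublet scores (scanpy 1.11.5) gave an alternative, as did DESeq2 1.42.0. Genes named are the 12 largest changes per direction among called genes with at least 20 CPM whose groups do not overlap, and in each list up to 4 called and up to 3 abundant others; exceptions are marked. In simulated data for the genotype comparison (9904 genes), 100% of 4-fold and 38% of 2-fold increases were recovered, with 0 false calls. For decreases of these sizes it was 94% and 18%. For the difference between EC classes (9864 genes), it was 70% and 10% of increases, and 62% and 6% of decreases. Changes were placed only in genes with at least 50 CPM, and all genes were drawn at 1 common dispersion (0.0258). Marker-bearing cells and differences between pools were not simulated, so these rates do not carry over to the real libraries.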

Additional observations from a re-analysis of the deposited data

Results flagged for a closer look

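For 7 genes named above, the genotype effect differed between capECs and the other ECs of the same libraries by the interaction test (edgeR, adjusted over 9920 genes). The values are the log2 effect of Z/Z over WT in capECs minus that in other ECs. It was -2.80 for Syt1 (SE 0.62, adjusted p = 0.0045), -2.47 for Myrip (SE 0.66, adjusted p = 0.046), -2.79 for D5Ertd615e (SE 0.75, adjusted p = 0.0464) and -4.02 for Ccn3 (SE 0.86, adjusted p = 0.00263). It was -2.52 for Thsd7a (SE 0.49, adjusted p = 0.000697) and -2.14 for Tmem252 (SE 0.54, adjusted p = 0.0259). For Rgs5, the pericyte marker, it was 2.79 (SE 0.53, adjusted p = 0.000434), with 94.2, 113, 303 and 330 CPM in capECs and 292, 15.1, 120 and 70.9 CPM in the other ECs. In WT 2 the other ECs held 1 UMI of Rgs5, 1 of Tmem252, 1 of D5Ertd615e and 0 of Ccn3. None of these differences was called after free RNA was subtracted.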

How the results depend on the processing

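Of 1837 values of named genes under the alternatives, 218 lost the call, 22 gained it and 3, of called genes, reversed. The other 1594 kept their side of the threshold, and 44 of these, all of genes not called, changed sign. The 3 were Csmd1, at -0.52 without capECs bearing any pericyte, smooth muscle or FB marker UMI and -0.064 without those bearing 5 or more, and Zeb2, at -0.062 in the latter.

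The number of genes higher in Z/Z (105) was 57 by DESeq2, 388 without a filter on low counts, 40 with cells thinned to equal depth and 7 without cells bearing any marker UMI. The number lower (104) was 176 without a filter, 67 without shared barcodes, 49 with thinned cells and 15 without cells bearing any marker UMI. Leaving out a library gave 0 to 79 higher (0 without WT 1, 13 without WT 2, 79 without Z/Z 1, 74 without Z/Z 2) and 0 to 60 lower (0, 17, 60 and 42). DESeq2 and the fit without a filter used the same libraries, cells and UMIs as the main fit. In the other fits named so far, fewer samples, cells or UMIs remained. The cause of the changes was otherwise not tested. The replicate block, on the same libraries, cells and UMIs as the main fit, gave 187 higher and 148 lower, and 105 and 96 of the calls remained. The deviations of WT 1 and Z/Z 1 from their group means had r = -0.05 over 3403 genes. With 13 capECs in WT 2, counting noise can hide a shared deviation, so this cannot decide whether the numbers pair the libraries.

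The number of genes whose effect differed from other ECs (56) was 11 at more than 500 genes per cell, 8 at a marker sum of at least 5, 27 without high doublet scores, 5 without shared barcodes, 11 with thinned cells, 0 with free RNA subtracted, and 1 to 305 without a library; the cause was not tested. The capEC share difference ranged from 3.44 to 10.1 points and stayed positive in all 11 alternatives. The 63 and 13 WT capECs set the precision of every comparison.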
